A study of Homo sapiens with 4 samples.

Results

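The genes described here were 10 genes of the contractile, actin-binding program that serum response factor (SRF) drives: *TAGLN*, *TAGLN2*, *CNN1*, *CNN2*, *CNN3*, *ACTA2*, *MYL9*, *TPM1*, *TPM2* and *FLNA*. They were chosen from a list of the program's genes with the fold changes between CDYL-sh and control already known, so their values in that contrast are given as a description, with no p, and where calls of these genes are counted the count supports nothing. All 10 were found among the 58522 genes listed, by matching Ensembl identifiers to symbols. RNA-seq was done on Ishikawa cells, an established epithelial line from a human endometrial adenocarcinoma. The control group was 2 libraries of cells carrying a negative control shRNA, and the CDYL-sh group was 2 libraries of cells carrying an shRNA against *CDYL*, whose product is a chromodomain corepressor of transcription. All cells had been transduced with an shRNA vector and selected in puromycin, so no untransduced cells were compared. The labels number the CDYL-sh libraries 1 and 2 without saying whether these are separate cultures, separate hairpins or repeat libraries of 1 culture. The spread between libraries of a group, and each p-value built on it, may therefore be technical. In CDYL-sh it may also include a difference between hairpins.

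SRF binds the CArG box in the promoters of muscle and cytoskeletal genes. Its partners of the myocardin family, MRTFA and MRTFB, are held in the cytoplasm by monomeric actin and enter the nucleus when actin polymerizes. The products of these genes bundle, cross-link or decorate actin filaments, or let myosin pull on them. The program is best known from smooth muscle, and epithelial cells also use several of its genes in their stress fibres and cell junctions.

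The promoter sequences of 8 of the 10 genes were found in RefSeq (build GRCh38.p14), in 13 windows that run from 250 bases before a transcript start to 50 bases after it. The 250 bases before the start are printed for the 3 genes in which the CArG box or a run of letters at most 1 letter off it was found, and for *CNN3*, one of the genes with none. The windows of *CNN1*, *TAGLN2*, *TPM1* and *TPM2* had none either, and of these *TPM1* and *TPM2* were lower in CDYL-sh. A relation between the box and the levels was not tested. Capitals mark the CArG box or the run at most 1 letter off it. All sequences are written 5′ to 3′ along the strand of the gene.
*CNN2*, chr19:1026358-1026607, plus strand: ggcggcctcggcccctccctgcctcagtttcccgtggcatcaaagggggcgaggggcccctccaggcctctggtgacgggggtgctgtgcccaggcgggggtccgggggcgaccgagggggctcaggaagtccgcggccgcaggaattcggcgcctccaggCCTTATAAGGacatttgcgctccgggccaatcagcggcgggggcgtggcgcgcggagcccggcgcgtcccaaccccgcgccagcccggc
*FLNA*, chrX:154374635-154374884, minus strand: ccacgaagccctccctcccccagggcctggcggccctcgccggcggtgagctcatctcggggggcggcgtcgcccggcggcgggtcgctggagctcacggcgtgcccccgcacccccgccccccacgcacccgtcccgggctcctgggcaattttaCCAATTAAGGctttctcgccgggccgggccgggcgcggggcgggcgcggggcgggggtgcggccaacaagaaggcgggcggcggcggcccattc
*ACTA2*, window 2, chr10:88952774-88953023, minus strand: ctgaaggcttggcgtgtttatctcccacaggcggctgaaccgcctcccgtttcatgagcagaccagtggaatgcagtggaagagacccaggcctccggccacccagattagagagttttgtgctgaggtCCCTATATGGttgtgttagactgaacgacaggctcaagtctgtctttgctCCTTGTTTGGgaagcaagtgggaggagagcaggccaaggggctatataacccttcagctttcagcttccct
*CNN3*, window 1, chr1:94927111-94927360, minus strand: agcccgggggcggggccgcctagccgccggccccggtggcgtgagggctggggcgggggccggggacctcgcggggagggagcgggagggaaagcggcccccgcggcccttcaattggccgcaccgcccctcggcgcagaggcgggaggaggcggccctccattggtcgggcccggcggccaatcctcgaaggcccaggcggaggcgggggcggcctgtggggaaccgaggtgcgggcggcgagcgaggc

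An exact CArG box was found in *CNN2*, 89 bases before the start, and in *FLNA*, 94 bases before it. Of the 35116 windows of 27305 genes, 1.29% held such a run. *ACTA2* had 2 runs that were 1 letter off, at 121 and 71 bases before its second start, and 18.9% of all windows held a run at most 1 letter off. The MCAT element CATTCC was found in windows of *ACTA2* and *CNN3* and in 14.0% of all windows. The SP1 letters GGGCGG were found in all 8 genes, in 10 of their 13 windows, against 45.0% of all windows. The AP-1 letters TGACTCA, in 4.95% of all windows, were found in *TAGLN2* alone among the 8, and the TATA letters TATAAA, in 11.5% of all windows, were found in none. These matches describe letters in the windows and show no binding. The search covered both strands, and CArG runs exact and 1 letter off were counted together in the wider share.

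The 4 libraries held 22341852 to 27688447 counts, and 21323 to 22007 genes had a count. *CDYL* itself was at 50.4 and 53.0 CPM (the count scaled to library size) in the control libraries and at 11.4 and 9.70 CPM in the CDYL-sh libraries, so the target was at 20.4% of its control level (log2 fold change −2.28, standard error 0.13). Of the 16158 genes tested with edgeR's quasi-likelihood test, 25.7% passed an adjusted p of 0.05, 12.1% as lower and 13.6% as higher in CDYL-sh. The median log2 fold change of these genes was 0.01. Levels below are CPM from the deposited counts scaled by edgeR's library factors, except where FPKM, which is also per transcript length, is named. In bulk RNA, fewer cells of a type and less RNA per cell cannot be told apart.

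Of the 10 contractile genes, 7 were called lower at that threshold, none was called higher and 3 were not called. In 7 genes both CDYL-sh libraries lay below both control libraries, beside 31.8% of all genes tested. The median log2 fold change of the 10 was −0.79. Since the genes were chosen on this contrast, nothing is read from these counts.

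**Figure D1:**
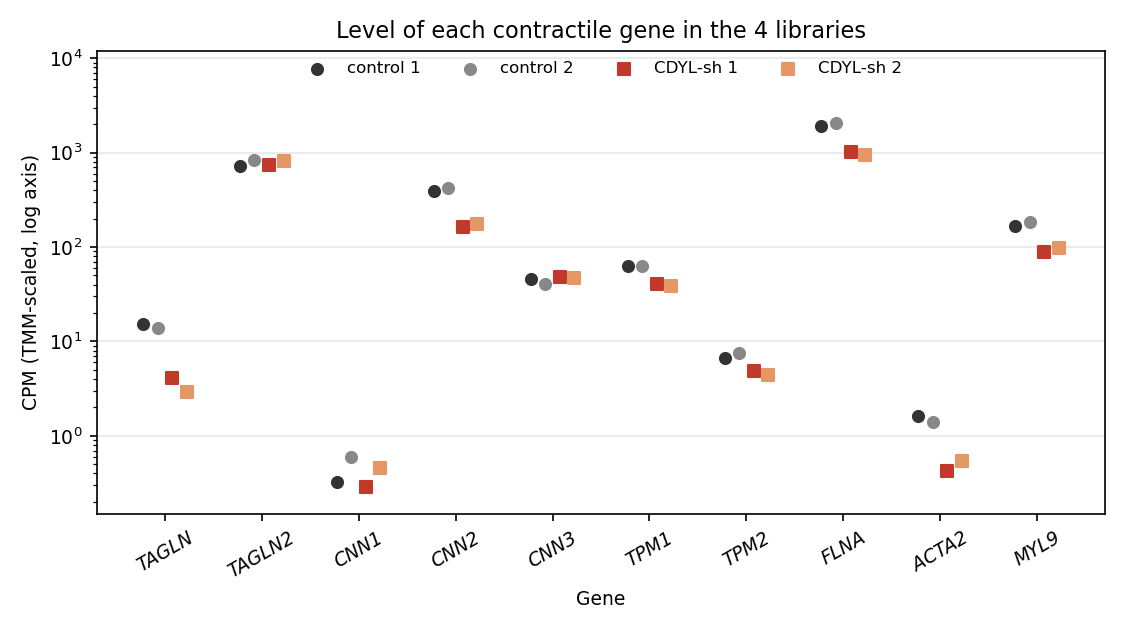
CPM of the 10 contractile genes in each library on a log10 axis, 1 point for each of the 2 control and 2 CDYL-sh libraries. The CDYL-sh points of *TAGLN*, *CNN2*, *ACTA2*, *MYL9*, *TPM1*, *TPM2* and *FLNA* lie below both control points, while those of *TAGLN2* and *CNN1* overlap with them.

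Transgelins bind and cross-link actin filaments. *TAGLN* (SM22α, ENSG00000149591, chr11:117199370-117207464, plus strand, 5 exons) is a classical marker of smooth muscle. It was at 15.3 and 14.0 CPM in the control libraries and at 4.07 and 2.95 CPM in the CDYL-sh libraries. The groups were far apart, and the CDYL-sh mean was 24.0% of the control mean, 4.17-fold lower (log2 fold change −2.02, standard error 0.20). Among the 10 genes this fitted difference was the largest. *TAGLN2* (ENSG00000158710, chr1:159918107-159925507, minus strand, 5 exons), the transgelin of non-muscle and epithelial cells, was at 721 and 832 CPM in control and at 745 and 823 CPM in CDYL-sh. Its groups overlapped, and the difference of 0.01 (standard error 0.12) on the log2 scale was smaller than the spread between the control libraries.

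Exons of *TAGLN* overlap exons of *PCSK7*, a proprotein convertase gene on the opposite strand, over 2233 bases, and those of ENSG00000280143 on the same strand over 2498 bases. The deposited counts of all 3 genes were fractional in every library, so reads had been divided between features. The sum of the 3 was also fractional in every library, so the division was not among these 3 alone. The sum of *TAGLN* and *PCSK7* without the third was whole, within rounding, in 2 of the 4 libraries. The alignment is said to have used an orientation mode, but whether the counting used strand is not given in the sources used here. Whether reads were divided between genes on opposite strands was not tested. *PCSK7*, looked at after the overlap was seen, held 2189 and 2092 counts in control and 1736 and 1226 in CDYL-sh, and it fell by 0.42 on the log2 scale (standard error 0.11, edgeR adjusted p = 0.00824, or 0.130 without CDYL-sh library 2). The *TAGLN* level therefore rests partly on how shared reads were assigned, and the part this has in its difference was not tested. Counts of *CNN2* and *TPM1* were fractional in all 4 libraries too. Exons of *CNN2* overlap those of ENSG00000279753, on the opposite strand, over 338 bases. ENSG00000279753 held 164.9 and 165.59 counts in control and 88.65 and 54.81 in CDYL-sh, few beside those of *CNN2*. The sum of these 2 genes was whole, within rounding, in 3 of the 4 libraries. Exons of *TPM1* overlap those of *TPM1-AS* over 2645 bases and of ENSG00000259627 over 691 bases, both on the opposite strand. These held at most 7.44 and 3.66 counts in any library, few beside the 843.58 to 1763.24 of *TPM1*. What shared reads add to the differences of *CNN2* and *TPM1* was not tested either.

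Calponins bind actin and tropomyosin and restrain the myosin motor. *CNN2* (ENSG00000064666, chr19:1026586-1039068, plus strand, 7 exons), the calponin of non-muscle cells, was at 396 and 420 CPM in control and at 164 and 175 CPM in CDYL-sh. Both CDYL-sh libraries were well below both control libraries, at 41.5% of the control mean (log2 fold change −1.27, standard error 0.11). *CNN3* (acidic calponin, ENSG00000117519, chr1:94896949-94927223, minus strand, 7 exons) was at 45.7 and 40.8 CPM in control and at 48.6 and 46.5 CPM in CDYL-sh. Both CDYL-sh libraries were above both control libraries, by 0.14 (standard error 0.12) on the log2 scale. *CNN1* (basic calponin of smooth muscle, ENSG00000130176, chr19:11538767-11550323, plus strand, 7 exons) was near the limit of detection, at 0.323 and 0.603 CPM in control and at 0.286 and 0.453 CPM in CDYL-sh. Its groups overlapped, and its log2 fold change of −0.29 (standard error 0.53) ranged from −0.63 to 0.14 when single libraries were left out.

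Tropomyosins coil along actin filaments and set which myosins and other proteins can bind. *TPM1* (ENSG00000140416, chr15:63042620-63071915, plus strand, 10 exons) was at 63.3 and 62.6 CPM in control and at 40.7 and 38.3 CPM in CDYL-sh. Libraries of the same group differed little, and CDYL-sh was at 62.7% of control (log2 fold change −0.67, standard error 0.11). *TPM2* (ENSG00000198467, chr9:35681992-35690056, minus strand, 9 exons) was at 6.75 and 7.499 CPM in control and at 4.93 and 4.40 CPM in CDYL-sh. Again both CDYL-sh libraries were lower, at 65.4% of control (log2 fold change −0.60, standard error 0.20). The *TPM2* difference stayed between −0.70 and −0.52 when single libraries were left out, but was then no longer called without control library 2 or either CDYL-sh library.

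*FLNA* (filamin A, ENSG00000196924, chrX:154348524-154374634, minus strand, 48 exons), which cross-links actin into networks and ties it to integrins, was at 1930 and 2049 CPM in control and at 1019 and 949 CPM after *CDYL* knockdown. The knockdown libraries were at 49.5% of the control mean, with no overlap (log2 fold change −1.01, standard error 0.11). *MYL9* (ENSG00000101335, chr20:36541497-36551447, plus strand, 4 exons), a regulatory light chain of myosin II, was at 169 and 183 CPM in control and at 88.7 and 98.7 CPM in CDYL-sh. It was likewise lower in both CDYL-sh libraries, at 53.3% of control (log2 fold change −0.91, standard error 0.11). *ACTA2* (smooth muscle α-actin, ENSG00000107796, chr10:88935074-88991339, minus strand, 9 exons) was at 1.62 and 1.39 CPM in control and at 0.428 and 0.544 CPM in CDYL-sh. These levels rest on 45 and 37 counts in control and 12 counts in each CDYL-sh library. The groups did not overlap, and CDYL-sh was at 32.3% of control (log2 fold change −1.50, standard error 0.42), a value of −1.65 to −1.36 when single libraries were left out, and no longer called without control library 1 or either CDYL-sh library. From FPKM the *ACTA2* difference was −0.64 on the log2(FPKM + 1) scale and −1.14 on the log2(FPKM + 0.1) scale, which understate the change of low genes. The FPKM themselves were 1.76 and 1.43 in control and 0.58 and 0.76 in CDYL-sh. The part of the transcript length used for FPKM in this gap was not tested.

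**Figure D2:**
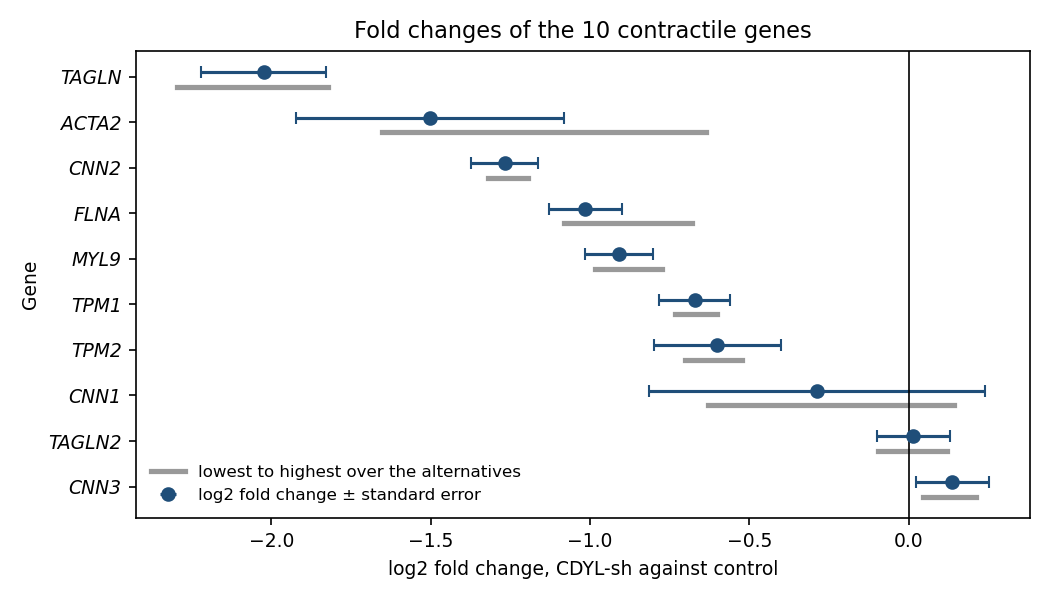
Log2 fold change of each contractile gene, CDYL-sh against control, with its standard error as a horizontal bar (points), and the lowest to the highest value over the other processing settings (grey bars). *TAGLN* sits lowest at −2.02, *ACTA2*, *CNN2* and *FLNA* at −1.50 to −1.01, and *TAGLN2* and *CNN3* close to 0.

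Per length, the order of the 10 genes was almost fixed. In FPKM, *TAGLN2* was the highest at 562.93 and 632.83 in control and 586.26 and 629.18 in CDYL-sh. *FLNA* followed at 522.70 and 536.61 and at 335.22 and 325.88, then *CNN2* at 220.02 and 226.42 and at 91.97 and 96.18, each given as control and then CDYL-sh. *CNN1* was the lowest in every library, between 0.25 and 0.89 FPKM, and *ACTA2* the second lowest, between 0.58 and 1.76 FPKM. Between them stood *MYL9*, *TPM1*, *CNN3*, *TAGLN* and *TPM2*, in this order. The one exchange was between *TAGLN* and *TPM2* in CDYL-sh library 2, at 3.96 and 4.48 FPKM, and in the CDYL-sh group these neighbours overlapped. Among all genes listed, *TAGLN* stood at ranks 4891 and 5207 by FPKM in control and at 9561 and 10095 in CDYL-sh.

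The make-up of the families moved most in the calponins. *CNN2* took 89.7% and 90.8% of their summed FPKM in control and 77.1% and 79.3% in CDYL-sh, and *CNN3* took 10.1% and 8.83% and then 22.7% and 20.4%. The sum itself was 245.2 and 249.3 FPKM in control and 119 and 121 FPKM in CDYL-sh. In the transgelins, *TAGLN* took 3.64% and 2.82% in control and 0.812% and 0.625% in CDYL-sh, and their sum, mostly *TAGLN2*, overlapped between groups at 584 to 651 and 591 to 633 FPKM. *MYL9* took 14.8% and 14.1% of the regulatory light chains in control and 8.91% and 10.5% in CDYL-sh. These shares depend on the measure. From counts, without length, *MYL9* took 24.7% and 24.5% in control and 14.8% and 17.1% in CDYL-sh. From counts *TAGLN* took 2.07% and 1.65% of the transgelins in control and 0.541% and 0.359% in CDYL-sh. *TPM1* kept a small share of the tropomyosins, at 6.61% and 6.62% and then 5.67% and 6.21%. The levels of *TPM3* and *TPM4* were lower as well, but their shares overlapped between groups. *TPM3* took 39.4% and 39.9% and then 40.8% and 39.8%, and *TPM4* took 53.0% and 52.6% and then 52.8% and 53.1%. *ACTA2* was at most 0.0202% of the summed FPKM of the actins in any library.

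**Figure D3:**
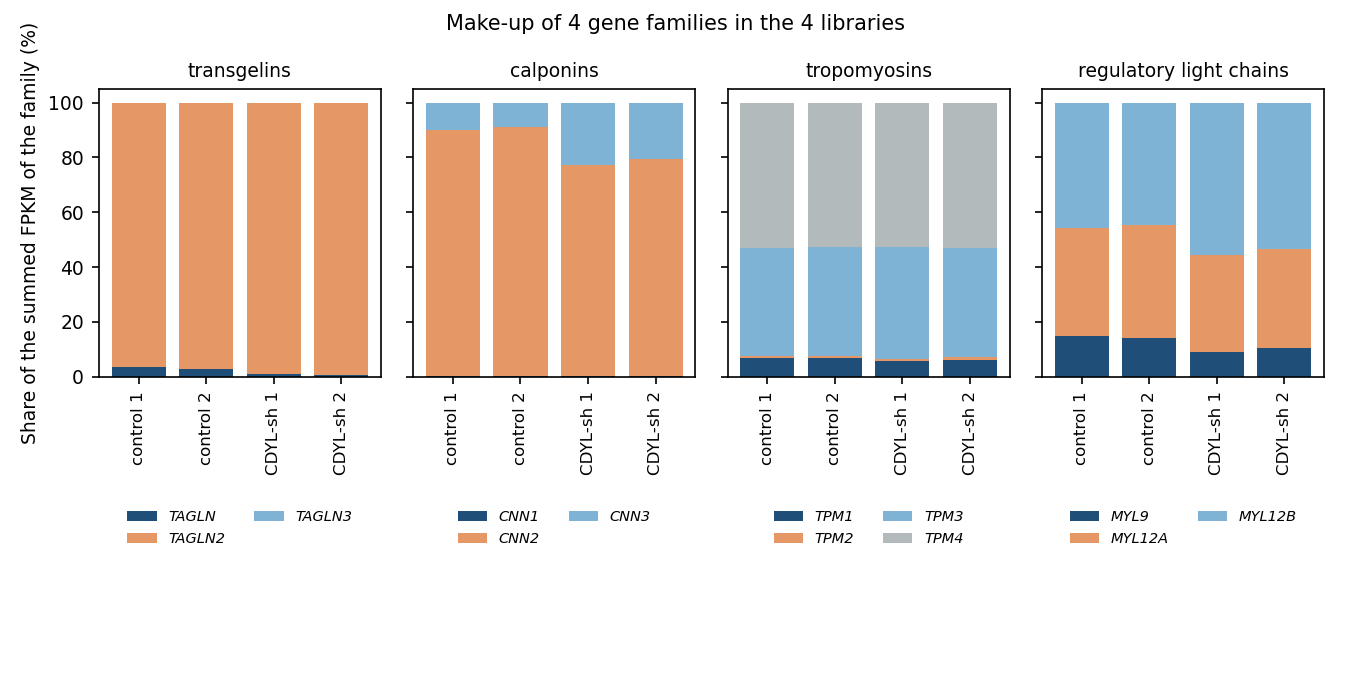
Share of each family's summed FPKM (%) taken by each of its genes in the 4 libraries, as stacked bars. The *CNN2* share is 89.7% and 90.8% in control and 77.1% and 79.3% in CDYL-sh, while the tropomyosin bars look alike.

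Counts and FPKM also gave different sizes for *FLNA*. The ratio of the deposited count to FPKM, scaled for the library, gives the transcript length behind each FPKM value. For *FLNA* this length in the CDYL-sh libraries was 81.9% and 76.2% of the control mean, a difference of −0.34 on the log2 scale, while the control libraries differed by 0.03. The 5th to 95th percentile of 11762 genes was −0.23 to 0.24, and 2.22% of them were lower than *FLNA*. With log2(FPKM + 1), the *FLNA* fold change was therefore −0.68 against −1.01 from counts, both on the log2 scale. The length difference was −0.13 for *MYL9*, −0.06 for *TPM1*, −0.03 for *CNN2*, −0.01 for *TAGLN2* and *CNN3*, 0.07 for *TPM2* and 0.10 for *TAGLN*, all within that range. It was not computed for *CNN1* and *ACTA2*, which were below 1 FPKM or 50 counts in some library.

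**Figure D4:**
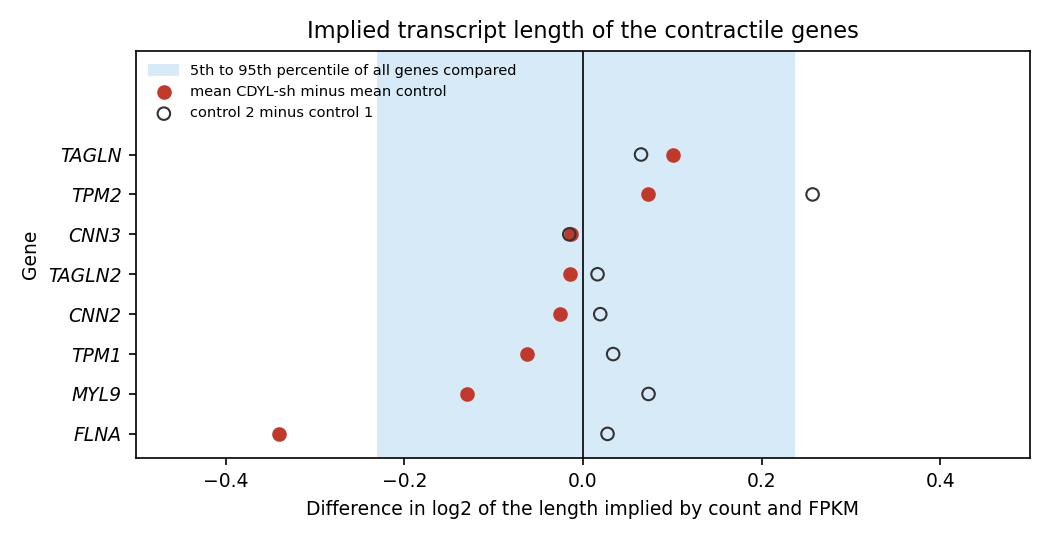
Difference in the transcript length behind FPKM, CDYL-sh against control on the log2 scale, for the 8 contractile genes that could be computed, with the 5th to 95th percentile of 11762 genes. *FLNA* at −0.34 lies outside the range of −0.23 to 0.24 and the other 7 genes inside it.

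Other genes of the program were taken from 4 lists of 62 genes, of which 55 were tested. In all 16 fell, 10 rose and 29 did not pass, with a median log2 fold change of −0.14, beside 12.1% lower and 13.6% higher over all genes tested. The lists, too, were written with earlier results of these data known. In the family list, which holds the relatives of the 10 genes, 5 of 11 tested fell and none rose, with a median of −0.39. *FLNC*, the filamin of muscle, was at 18.5 and 18.3 CPM in control and at 11.03 and 8.47 CPM in CDYL-sh, and fell by 0.90 (standard error 0.16, edgeR adjusted p = 0.000568). The cytoskeletal tropomyosins *TPM3* and *TPM4* and the light chain *MYL12A* also passed, with log2 fold changes of −0.44, −0.43 and −0.39. Their calls were lost without CDYL-sh library 2, at −0.33, −0.32 and −0.35 with adjusted p of 0.118, 0.144 and 0.083. Those of *TPM3* and *TPM4* were also lost without control library 1 (−0.42 and −0.40, adjusted p = 0.0648 and 0.0829), and that of *MYL12A* without control library 2 (−0.30, adjusted p = 0.120). The cytoplasmic actins did not pass: *ACTB* had a log2 fold change of −0.14 (adjusted p = 0.430) and *ACTG1* one of −0.14 (adjusted p = 0.386).

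Among SRF and its partners, 2 of 7 tested genes fell and 2 rose, with a median of −0.02. *SRF* itself was at 80.0 and 84.8 CPM in control and at 47.6 and 42.2 CPM in CDYL-sh. It fell by 0.87 on the log2 scale (standard error 0.11, edgeR adjusted p = 2.94e-05). *MRTFA* was at 34.8 CPM in both control libraries and at 25.1 and 23.2 CPM in CDYL-sh, and fell by 0.53 (standard error 0.12, adjusted p = 0.00412), a call lost without CDYL-sh library 2 (−0.47, adjusted p = 0.0735). *MRTFB* overlapped, at 26.2 and 21.7 CPM in control and at 29.0 and 25.1 CPM in CDYL-sh (log2 fold change 0.18, adjusted p = 0.367). *FHL2*, an LIM-domain cofactor, rose from 0.251 and 0.0377 CPM to 1.11 and 0.997 CPM (log2 fold change 2.34, standard error 0.55, adjusted p = 0.00448). It rested on 7 counts and 1 count in control, was 3.28 without control library 1 and 1.78 without control library 2, and entered the test through the CDYL-sh libraries alone. *ELK3*, an ETS factor that competes with the myocardin family for SRF, rose by 0.45 (adjusted p = 0.0262) and was not called without control library 2 or either CDYL-sh library, at 0.36, 0.42 and 0.47 with adjusted p of 0.0676, 0.171 and 0.144. *MYOCD* and *ABRA* had no count in any library, which allows up to 0.108 to 0.134 CPM for counting error alone.

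**Figure D5:**
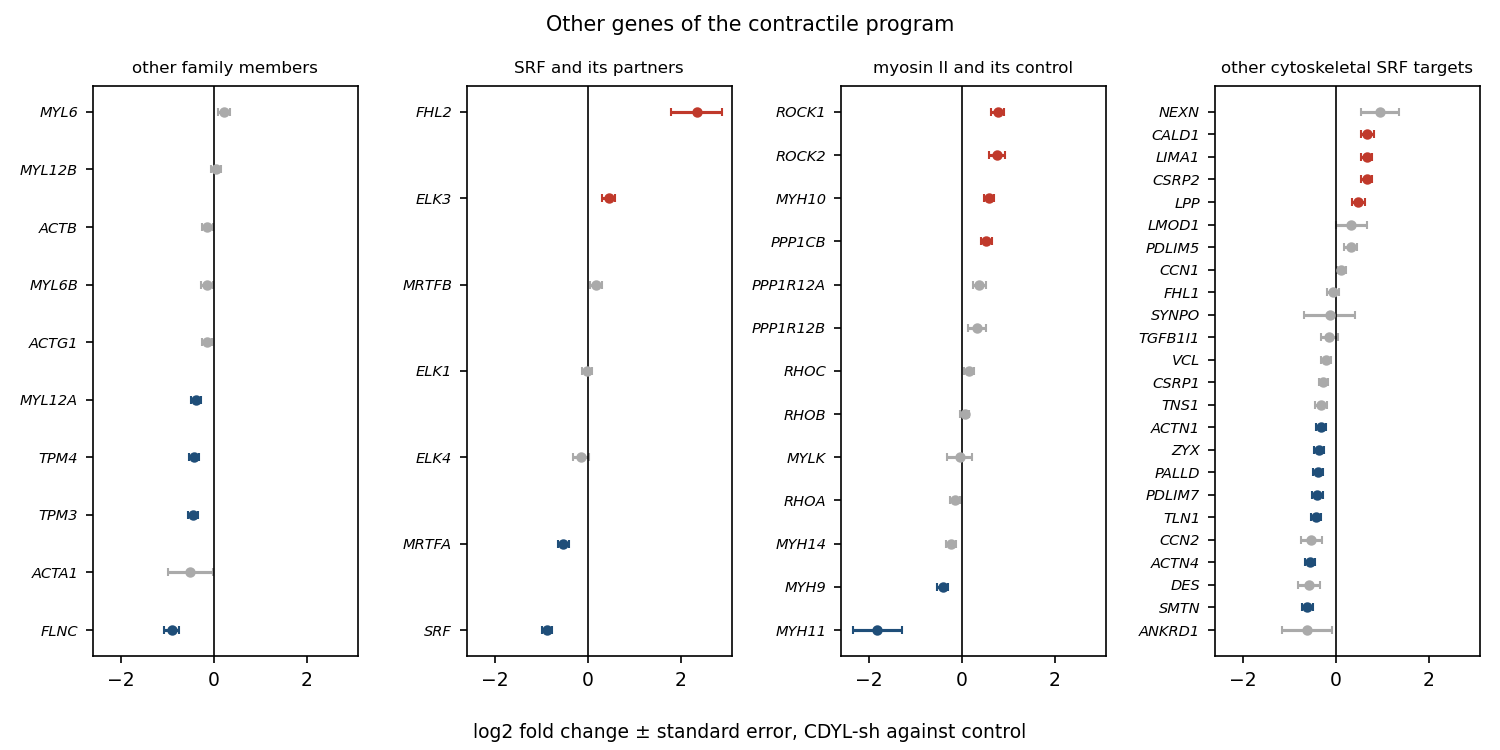
Log2 fold changes of tested genes of the 4 other lists, CDYL-sh against control, with genes that passed an adjusted p of 0.05 in edgeR set apart by colour. *SRF* lies at −0.87 and *FHL2* at 2.34 in the list of SRF and its partners.

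In myosin II and its control, 4 of 13 tested genes rose and 2 fell, with a median of 0.16. *ROCK1*, a kinase that acts on the light chain phosphatase, was at 23.4 and 18.5 CPM in control and at 34.8 and 37.0 CPM in CDYL-sh, and rose by 0.77 (standard error 0.14, edgeR adjusted p = 0.000463). *MYH10*, the non-muscle heavy chain IIB, was at 50.8 and 48.7 CPM in control and at 78.9 and 71.4 CPM in CDYL-sh, and rose by 0.59 (standard error 0.11, adjusted p = 0.000752). *ROCK2* rose by 0.76 (adjusted p = 0.00331), or 0.49 without control library 2, and *PPP1CB*, the catalytic subunit of that phosphatase, by 0.53 (adjusted p = 0.00301), or 0.27 with offsets for GC content and length. The heavy chain IIA, *MYH9*, fell by 0.41 (adjusted p = 0.0121), and was not called without control library 1 (−0.43, adjusted p = 0.0677) or CDYL-sh library 2 (−0.31, adjusted p = 0.168). The smooth muscle heavy chain *MYH11* was at 0.826 and 0.678 CPM in control and at 0.179 and 0.136 CPM in CDYL-sh (log2 fold change −1.82, adjusted p = 0.0162). It entered the test through the control libraries alone, where it is high, and its call was lost whichever library was left out, with adjusted p of 0.051 to 0.158.

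Of 24 tested cytoskeletal genes known as SRF targets, 7 fell and 4 rose, with a median of −0.24. *SMTN*, an actin-binding protein of contractile cells, was at 66.9 and 68.6 CPM in control and at 45.3 and 43.7 CPM in CDYL-sh, and fell by 0.60 (standard error 0.11, edgeR adjusted p = 0.000613). The actin cross-linker *ACTN4* was at 1007 and 1142 CPM in control and at 754 and 714 CPM in CDYL-sh, and fell by 0.55 (standard error 0.11, adjusted p = 0.00174). In the other direction, the actin bundler *LIMA1* was at 36.4 and 32.7 CPM in control and at 54.5 and 55.5 CPM in CDYL-sh, and rose by 0.67 (standard error 0.12, adjusted p = 0.000412). *CSRP2*, an LIM protein of smooth muscle, was at 41.9 and 44.01 CPM in control and at 62.3 and 74.6 CPM in CDYL-sh, and also rose by 0.67 (standard error 0.12, adjusted p = 0.000491).

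The genes whose pattern over the 4 libraries was closest to that of *TAGLN* were *CDYL*, *SLC36A1* and *GDPD5*. Closeness was the Euclidean distance between centred log2 CPM over the 11137 genes that averaged 5 CPM or more, and it was 0.318, 0.367 and 0.417. *SLC36A1*, an amino acid transporter, was at 47.4 and 52.6 CPM in control and at 14.7 and 13.3 CPM in CDYL-sh. *GDPD5*, a glycerophosphodiesterase, was at 83.8 and 104 CPM in control and at 27.9 and 24.3 CPM in CDYL-sh. With 2 groups of 2 libraries, this distance rests mostly on the difference between the groups, by which *TAGLN* was chosen. The log2 fold changes of *CDYL*, *SLC36A1* and *GDPD5* were −2.28, −1.83 and −1.84, beside −2.02 for *TAGLN*. The likeness is a description and does not show shared control.

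Markers of other cell types were low beside epithelial ones. The 10 epithelial markers were all tested and summed to 2428 and 2678 FPKM in control and to 2477 and 2624 FPKM in CDYL-sh, with overlap. In edgeR 2 of them fell (*KRT18* and *GRHL2*) and 3 rose (*KRT7*, *KRT19* and *CLDN4*), beside 12.1% and 13.6% of all genes tested. The *KRT18* call was near the threshold (edgeR adjusted p = 0.0472) and was lost with upper quartile normalization (edgeR adjusted p = 0.0544). Of 8 smooth muscle markers, 6 of which are also in the lists above, 3 were tested and 1 was called lower, *MYH11*, given above. They summed to 4.29 and 4.31 FPKM in control and to 2.71 and 3.1 FPKM in CDYL-sh. *MYOCD* and *CASQ2* were at 0 in every library, while the other markers of this list had some counts. Of 10 fibroblast markers 4 were tested and 1, *COL1A1*, fell, their sum was 6.99 and 6.57 FPKM in control and 4.46 and 4.86 FPKM in CDYL-sh, and *COL3A1*, *DCN*, *FAP* and *POSTN* were at 0 in every library. The sum of 5 endothelial markers was 0.67 and 0.83 FPKM in control and 1.88 and 1.78 FPKM in CDYL-sh, and that of 5 leukocyte markers was 5.78 and 8.12 FPKM and then 14.6 and 11.7 FPKM, with *CD3E* at 0. Of the 3 and 2 tested among these, *PECAM1* and *CD68* rose. The smooth muscle and fibroblast sums were lower in CDYL-sh, and the endothelial and leukocyte sums were higher. *DES*, which was not called, held 3.1 and 3.13 FPKM of the smooth muscle sum in control and 1.85 and 2.16 FPKM in CDYL-sh. *COL1A1* and *COL1A2* held most of the fibroblast sum, and *CD68* most of the leukocyte sum. Of the endothelial markers, *CDH5* went the other way in counts, with 17 and 23 in control and 7 in each CDYL-sh library. The part of these sums in the differences of the contractile genes was not tested.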

How the data were processed

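RNA was sequenced from Ishikawa cells in 2 control and 2 CDYL-sh libraries (TruSeq, HiSeq, paired ends). The authors deposited, for each gene and library, expected counts, which can be fractional, and FPKM values. TopHat, RSEM and edgeR are named in the submitters' processing notes, with GRCh38.p10 as the build. The annotation release is not given in the sources used here.

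Expected counts were rounded and tested with edgeR 4.0.16 (quasi-likelihood, TMM, filterByExpr with a minimum count of 10, prior count 2 for log2 CPM, Benjamini-Hochberg adjustment, 0.05) in R 4.3.3, on 22341852 to 27688447 counts per library, and checked on simulated counts. These numbers limit precision through counting error and spread over 2 libraries a group. No p is given for the 10 genes, and the genes and lists were chosen with earlier results of these data known. Named genes were all 10, up to 4 called genes of each other list by adjusted p, *SRF*, *MRTFA*, *MRTFB*, *CDYL* and the 3 genes closest to *TAGLN*, counting *CDYL*. *MYL12A*, *ACTB*, *ACTG1*, *MYH9*, *MYH11*, *MYOCD*, *ABRA*, *PCSK7*, *DES*, *COL1A2*, *CDH5*, *TPM1-AS*, ENSG00000279753 and ENSG00000259627 were added after their values were seen. Alternatives covered normalization, filters, DESeq2 1.42.0, limma 3.58.1, offsets for GC content and length, a replicate block and leaving out each library. The main fit did not pair libraries by replicate number. The correlation of deviations between libraries of the same number was 0.03, which cannot settle whether they were paired. Positions are from GENCODE 44 on GRCh38; 98.1% of identifiers had a symbol. Protein sequences were not analysed here. The values of 1 gene of the other lists are not reported here, though the counts of those lists include it.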

Additional observations from a re-analysis of the deposited data

How the results depend on the processing

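Of the 10 contractile genes, 7 were called lower in the edgeR fit, 6 with DESeq2 and 5 with limma on log2(FPKM + 1) or log2(FPKM + 0.1). Over all genes tested, 1956 of 16158 were called lower in the edgeR fit and 1719 of 16158 with DESeq2. With limma on these 2 FPKM scales it was 237 and 252 of 15574. Since the 10 genes were chosen on this contrast, their counts support nothing. With limma on log2(FPKM + 1) and no filter none of the 10 was called, nor was any gene. In that setting 7 of the 10 had an unadjusted p under 0.05, beside 4572 of all 25884 genes tested. None was called higher in any setting. With a replicate block the numbers were 7 lower and 0 higher, and in the other lists 19 lower and 13 higher, against 16 and 10 without it. In those lists the number lower was 6 to 13 when 1 library was left out (10 without control library 1, 6 without CDYL-sh library 2), and 2, 2 and 0 with limma on FPKM with a pseudocount of 1, of 0.1, and without a filter. The number higher was 8 to 12, and 1, 2 and 0 in the same settings, and 24 of these genes had an unadjusted p under 0.05 in the last. Over all genes the block gave 2581 lower and 2812 higher, and leaving out CDYL-sh library 2 gave 923 lower and 1159 higher, the cause of which was not tested. No call changed direction. The log2 fold changes of *CNN1* and *TAGLN2*, which were not called, changed sign: *CNN1* from −0.29 to 0.14 without control library 2, and *TAGLN2* from 0.01 to −0.10 without control library 1 and −0.06 without CDYL-sh library 2. With 2 libraries a group, small differences such as those of *CNN1* and *CNN3* could not be resolved.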
